A study of Mus musculus with 10 samples.

Results

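Salivary gland cells from female NOD/shiLtJ mice that were 21 weeks old and had type 1 diabetes (4 arrays) were compared with gland cells from female NOD/shiLtJ mice that were 6 weeks old and had no diabetes (3 arrays). These are 7 of the 10 arrays of the series, chosen by their labels. The other 3 arrays come from females of the same strain without diabetes at 21 weeks, and their values are given beside the comparison for some genes only. In all 3 groups the gland was cut up in dispase II and collagenase IV and filtered, and RNA was taken from the isolated cells with Trizol, with no other treatment in the labels. Age and diabetes differ together between both groups compared, so their parts in a difference cannot be told apart here. The labels do not say which salivary gland was taken, how long the mice had been diabetic or at what time of day they were sampled, and they do not say whether a number marks a single animal or a pool.

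The NOD mouse develops autoimmune loss of insulin-producing cells and, apart from that, lymphocyte infiltration of the salivary and lacrimal glands. A mouse salivary gland consists of acini that make watery or mucous secretion, ducts that modify it, and contractile myoepithelial cells around the acini. The submandibular gland also has granular convoluted tubules, duct segments that mature after puberty and store kallikreins and growth factors, while the parotid gland is purely serous and is known for amylase.

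Each value is a log2 intensity per probe set, normalized between arrays by the authors. A positive difference means a higher value in the diabetic 21-week glands, the number after ± is the standard error of the limma fit over all 10 arrays, and a gene is said to rise or fall only with a Benjamini-Hochberg adjusted p under 0.05 over all genes tested. P-values are set against the spread between these arrays, part of which may be technical. Of 18826 genes tested, 272 passed (1.44%), of which 170 rose (0.903% of all genes) and 102 fell (0.542%), and 128 changed at least 2-fold (0.68%), 93 of them upward. All 272 had values that did not overlap between both groups, which held for 16.7% of all genes. At an unadjusted limma p under 0.05 there were 2811 of the 18826 genes, higher and lower together. The median difference over all genes was −0.02. Counts of called members in the gene lists below are to be set against the 1.44% of all genes called. The lists were chosen with earlier results of these data known, so their counts are descriptions and not tests. After quantile normalization 157 genes rose and 162 fell, so 49.2% of the calls were upward against 62.5% in the deposited scaling.

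**Figure D1:**
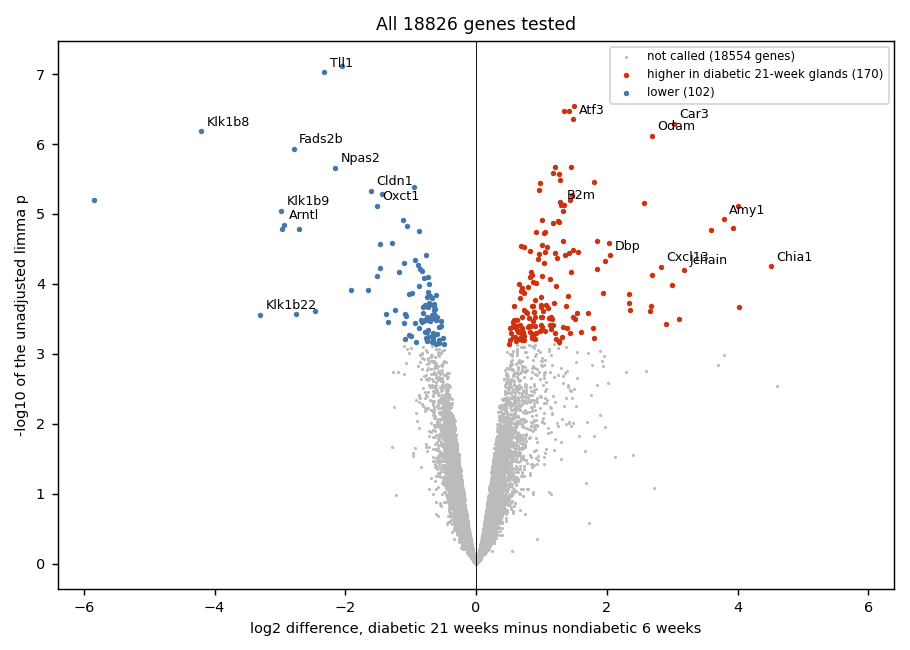
Every gene tested, with its log2 difference (diabetic 21 weeks minus nondiabetic 6 weeks) on the x axis and −log10 of the unadjusted limma p on the y axis. The 170 genes that rose are on the right and the 102 that fell on the left, with Klk1b8 at −4.21 and Chia1 at 4.51.

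The 7 arrays correlated with each other at 0.94 to 0.975. The third nondiabetic array of 21 weeks was less like the rest (0.901 to 0.93). It belongs to neither group compared, but enters the shared estimate of spread, the filter on low values and the choice of probe set per gene. Left out of the fit, with the same genes and probe sets kept, 393 genes passed. The count also rested on the few young arrays: 98, 68 and 48 genes passed without 6-week array 1, 2 and 3, and 155 and 91 without diabetic array 2 and 3. Of the 135 genes chosen by a naming rule, 69 passed and 21 of these passed with any 1 of the 10 arrays left out. Marker genes fitted the tissue label, since the 6 markers of salivary epithelium (Aqp5, Bhlha15, Krt8, Krt18, Epcam and Slc12a2) had summed values of 50.4 to 53 in the diabetic arrays and 51.0 to 51.5 in the 6-week arrays, and 0 of them passed the test. The 4 exocrine pancreas markers summed to 13.7 to 15.4 and 13.6 to 14.9.

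Genes of the granular convoluted tubule fell as a group. Of 14 measured members of this list 11 fell and 0 rose (78.6% called, median −2.19), against 0.542% of all genes that fell. All 14 had lower values on every diabetic array than on any 6-week array, which held for 8.49% of all genes. Of the 11, 9 are Klk1b kallikreins, serine proteases stored in tubule granules. Most are encoded next to each other on chromosome 7 and are close copies, so probe sets can share signal. The 250 bases before the start of these 9 genes were 54.3% to 89.7% identical in pairwise global alignments (median 75.8% over 36 pairs). Each of the 9 promoters held the letters TTTAAA (both strands searched, motif chosen after the sequences were seen), against 13.2% of all 32851 promoters in the RefSeq table. The whole promoter sequence was searched, which also holds bases after the start. As close copies, the 9 are not independent observations. The 150 bases before the start of 4 of the genes that fell furthest are shown to let their likeness be seen, with TTTAAA in capitals (RefSeq, GRCm38.p6).
Klk1b8 (chr7:43950516-43950665, plus strand): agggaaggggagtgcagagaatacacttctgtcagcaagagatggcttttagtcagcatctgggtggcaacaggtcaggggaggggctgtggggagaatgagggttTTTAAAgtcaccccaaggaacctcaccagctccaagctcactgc
Klk1b9 (chr7:43975911-43976060, plus strand): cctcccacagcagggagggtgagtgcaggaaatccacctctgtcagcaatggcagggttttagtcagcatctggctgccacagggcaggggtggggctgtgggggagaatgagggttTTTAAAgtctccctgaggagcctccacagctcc
Klk1b16 (chr7:44137140-44137289, plus strand): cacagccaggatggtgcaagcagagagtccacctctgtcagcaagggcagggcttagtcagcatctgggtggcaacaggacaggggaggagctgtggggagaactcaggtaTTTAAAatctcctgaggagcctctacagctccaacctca
Klk1b22 (chr7:44112523-44112672, plus strand): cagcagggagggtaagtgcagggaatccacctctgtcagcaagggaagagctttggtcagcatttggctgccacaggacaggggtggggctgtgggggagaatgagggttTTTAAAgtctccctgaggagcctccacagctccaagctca

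TTTAAA begins 44, 33, 39 and 40 bases before the annotated start in Klk1b8, Klk1b9, Klk1b16 and Klk1b22. Klk1b8 was 6.62, 7.28 and 7.12 on the 6-week arrays and 2.19, 4.18, 2.55 and 2.3 on the diabetic arrays. On 3 of the 4 diabetic arrays it lay under the 25th percentile of the array. The fall was 4.21 ± 0.46 (18.4-fold, adjusted p = 0.00154), and its size is limited by that low end. Klk1b22 was 9.96, 10.54 and 10.65 at 6 weeks and 8.29, 8.52, 6.72 and 4.78 in diabetic mice, a fall of 3.31 ± 0.66 (9.9-fold, adjusted p = 0.0321). Diabetic array 4 was the lowest by far, and without it the fold was 5.82. Klk1b9 went from 8.28, 8.29 and 8.6 to 5.96, 6.20, 5.45 and 4.0 and fell by 2.98 ± 0.42 (adjusted p = 0.00515). Klk1b16 fell by 2.97 ± 0.44 and Klk1b11 by 2.46 ± 0.49. Klk1b1 fell by 2.71 ± 0.40, with 2 diabetic values under the 25th percentile. Klk1b21, Klk1b27 and Klk1b24 fell by 1.91 ± 0.35, 1.51 ± 0.26 and 1.24 ± 0.24.

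Nondiabetic 21-week mice had higher values of these genes than the young mice. Klk1b8 was 8.05, 8.78 and 9.79 there, Klk1b22 11.68, 11.56 and 11.91 and Klk1b9 9.46, 9.91 and 10.52, above every 6-week and every diabetic value. The list median was 1.25 for 21 minus 6 weeks without diabetes and −3.18 for diabetic minus nondiabetic mice at 21 weeks, comparisons that share arrays with this one. Crisp3, a cysteine-rich secretory protein, also fell, from 10.99, 11.00 and 11.45 to 9.38, 9.63, 7.97 and 6.58 (2.76 ± 0.55, adjusted p = 0.0319). Its diabetic values spread over more than 3 log2 units, with array 4 lowest, and the 6.76-fold fall became 4.45-fold without that array. Crisp3 did not pass without any 1 of diabetic array 3 or of 6-week arrays 1, 2 and 3 (adjusted p up to 0.136). Gstt3, a glutathione transferase, completes the 11 with a fall of 0.54 ± 0.11.

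The 3 members that did not pass were Egf, Klk1 and Klk1b5. Egf, the epidermal growth factor precursor, was 8.22, 8.63 and 8.64 on the young arrays and 7.61, 7.62, 7.59 and 6.73 on the diabetic arrays (−1.10 ± 0.25, adjusted p = 0.0515), while nondiabetic 21-week glands had 9.28, 9.54 and 10.20. Klk1, the glandular kallikrein that releases kinins, had 12.92, 12.91 and 13.01 on young and 12.79, 12.83, 12.60 and 12.26 on diabetic arrays (−0.32 ± 0.14, adjusted p = 0.303). These values lie close to the array maxima of 13.1 to 13.2. Fewer tubule cells, less RNA per cell and a different share of each gland in a sample cannot be told apart in these bulk samples. The count of falling tubule genes was 4 without diabetic array 3, and 5, 4 and 2 without 6-week arrays 1, 2 and 3. Klk1b8 and Klk1b9 passed under each of these, with adjusted p up to 0.0158 and 0.0436, and Klk1b22 did not without any 1 of diabetic array 3 or of 6-week arrays 1, 2 and 3 (up to 0.132). Klk1b1 and Klk1b16 missed it without 6-week array 3 (0.0551 and 0.0551).

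**Figure D2:**
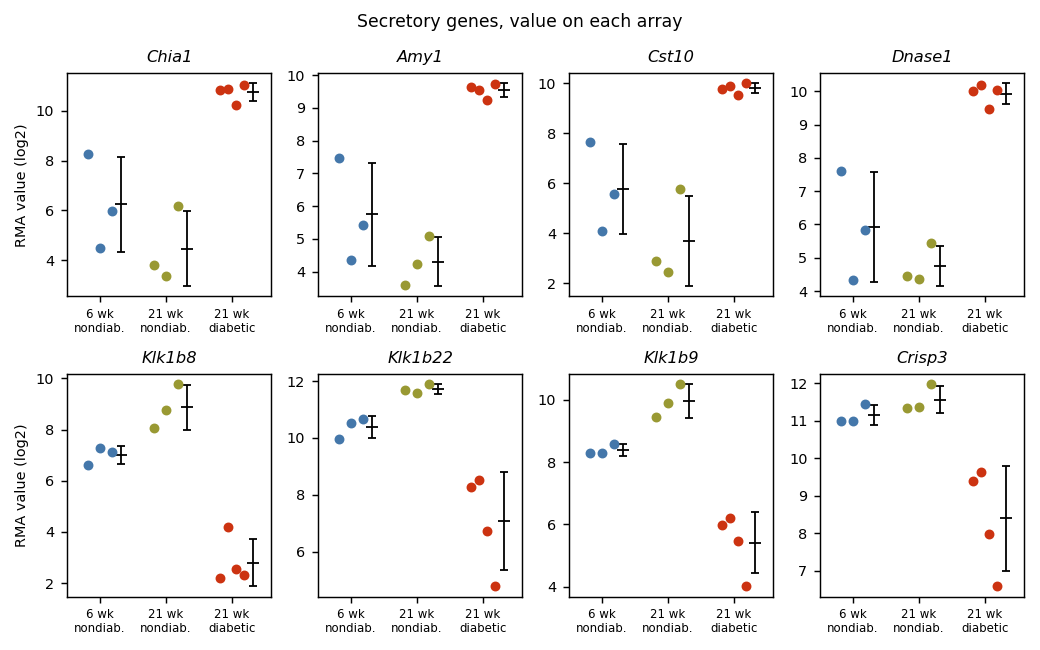
RMA values (log2, y axis) of 8 secretory genes on each array, grouped as 6-week nondiabetic, 21-week nondiabetic and 21-week diabetic. Points are arrays and the bar beside them is the mean ± SD. Chia1, Amy1, Cst10 and Dnase1 are high on all 4 diabetic arrays and range widely among young arrays, and the kallikreins and Crisp3 are lowest on the diabetic arrays.

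Several genes of secretory proteins abundant in the parotid gland rose. Of 18 measured members of this list 6 rose and 0 fell (33.3% called, against 1.44% of all genes, median 1.30). Among the 6, 4 (Chia1, Cst10, Dnase1 and Amy1) rose at least 13.8-fold. Chia1, acidic chitinase, was 8.29, 4.48 and 5.98 at 6 weeks and 10.86, 10.88, 10.25 and 11.05 in diabetic glands. Young arrays spread over nearly 4 log2 units, with array 1 highest, and none reached the lowest diabetic value. The rise was 4.51 ± 0.76 (22.7-fold, adjusted p = 0.0138), and 46.0-fold without 6-week array 1. Amy1, salivary amylase, which splits starch, was 7.46, 4.36 and 5.43 on young against 9.63, 9.56, 9.25 and 9.72 on diabetic arrays and rose by 3.79 ± 0.55 (13.8-fold, adjusted p = 0.00635).

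Dnase1, a secreted nuclease, went from 7.60, 4.32 and 5.83 to 10.02, 10.17, 9.48 and 10.05 (4.01 ± 0.55, adjusted p = 0.00473). Cst10, a cystatin-family protein, was 7.66, 4.08 and 5.57 on young and 9.78, 9.88, 9.54 and 9.99 on diabetic arrays (4.03 ± 0.78, adjusted p = 0.0285). The order among young arrays was the same for Chia1, Amy1, Dnase1 and Cst10: array 1 high, array 2 low. Without 6-week array 1 the folds of Amy1, Dnase1 and Cst10 were 25, 28.9 and 31.4, against 13.8, 16.1 and 16.3 with it. Bpifb1, a secreted lipid-binding protein, rose by 3.11 ± 0.63, which is 8.64-fold, or 15-fold without 6-week array 1. Odam, a secreted odontogenic ameloblast-associated protein, had tight values of 4.08, 3.90 and 4.16 on young against 6.82, 7.28, 5.79 and 7.07 on diabetic arrays and rose by 2.69 ± 0.30 (adjusted p = 0.00158).

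The other 12 members did not pass, although some had values without overlap, in both directions. Of all 18 members, 11 had diabetic values above all young values and 3 below them, against 8.2% and 8.49% of all genes. Smr3a, a proline-rich salivary protein, was 9.18, 3.17 and 7.19 on the young and 11.24, 11.16, 10.80 and 11.28 on the diabetic arrays (4.61 ± 1.25, adjusted p = 0.0972). Its young arrays spread from 3.17 to 9.18. Bpifa2, the parotid secretory protein, was 11.77, 8.67 and 10.57 on young and 12.30, 12.38, 12.38 and 12.36 on diabetic arrays (2.02 ± 0.54, adjusted p = 0.0918). Without 6-week array 2 its difference was 1.19 (2.28-fold). Car6, a secreted carbonic anhydrase, differed by −0.29 ± 0.11 and Lpo, lactoperoxidase, by 0.05 ± 0.19. The 7 parotid-abundant marker genes summed to 73.8 to 76.4 on the diabetic arrays, 41.5 to 64.4 on the 6-week arrays and 37.9 to 52.5 on the nondiabetic 21-week arrays. The share of each gland in a sample is not given, and its part in these values was not tested. In nondiabetic 21-week glands Amy1 was 3.59, 4.24 and 5.09 and Chia1 3.82, 3.39 and 6.18, each under the lowest young value on 2 of 3 arrays. The list kept 3 of its 6 rises without 6-week array 2 or 3. Amy1, Dnase1 and Odam passed with each array left out. Chia1 did not pass without any 1 of 6-week arrays 2 and 3 (adjusted p up to 0.0767), Cst10 without any 1 of diabetic arrays 1, 2, 3 and 4 or of 6-week arrays 2 and 3 (up to 0.119) or Bpifb1 without any 1 of diabetic arrays 1, 2 and 4 or of 6-week arrays 2 and 3 (up to 0.144).

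Other secretory and duct genes changed singly. Of 15 mucous and sublingual genes 2 rose and 0 fell: Pigr, the receptor that carries polymeric antibody into saliva (8.16, 8.96 and 8.35 on young against 10.23, 9.82, 9.89 and 9.08 on diabetic arrays, 1.26 ± 0.28, adjusted p = 0.0467), and St6galnac1, a mucin sialyltransferase (0.90 ± 0.17). Pigr was already 10.13, 10.04 and 9.29 in nondiabetic glands at 21 weeks. Muc19, a gel-forming mucin of sublingual mucous cells, had 8.42, 9.95 and 7.55 on young and 11.70, 11.50, 11.66 and 10.62 on diabetic arrays but a standard error of 1.44 (difference 2.73, or 3.39 without 6-week array 2, adjusted p = 0.412), and nondiabetic 21-week arrays had 2.03, 10.86 and 4.70. Pigr did not pass without any 1 of diabetic arrays 1, 2 and 3 or of nondiabetic 21-week arrays 1 and 2 or of 6-week arrays 1, 2 and 3 (adjusted p up to 0.185), nor St6galnac1 without any 1 of diabetic arrays 2 and 3 or of 6-week arrays 1, 2 and 3 (up to 0.118).

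Among 16 regulators of secretory cells, Rab27b, which guides secretory granules to the membrane, fell (1.10 ± 0.18), as did Rap1gap (0.67 ± 0.13), and Xbp1, a transcription factor for secretory capacity, rose (0.56 ± 0.12). Bhlha15, which drives acinar maturation, differed by −0.47 ± 0.18 (adjusted p = 0.232). Of 18 duct genes only Scnn1b, a subunit of the epithelial sodium channel, passed, with a fall of 0.89 ± 0.15 from 5.78, 5.88 and 6.18 to 5.0, 5.25, 4.76 and 5.23. Scnn1b did not pass without any 1 of 6-week arrays 2 and 3 (adjusted p up to 0.085), Rab27b without any 1 of diabetic array 3 or of 6-week arrays 2 and 3 (up to 0.0713), Rap1gap without any 1 of diabetic arrays 1 and 3 or of 6-week arrays 1, 2 and 3 (up to 0.109) or Xbp1 without any 1 of diabetic arrays 1, 2 and 3 or of nondiabetic 21-week array 2 or of 6-week arrays 1, 2 and 3 (up to 0.163).

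Among 18 genes of fluid and ion transport 1 rose: Slc4a4, a sodium bicarbonate cotransporter (4.19, 4.69 and 4.59 on young against 5.36, 5.24, 5.43 and 5.09 on diabetic arrays, 0.79 ± 0.14, adjusted p = 0.0209). Aqp5, the acinar water channel, did not pass, with 0.07 ± 0.16 and adjusted p = 0.881. Acta2, the smooth muscle actin of myoepithelial cells, rose by 1.18 ± 0.25 as 1 of 11 genes of that list. Serpinb11, a protease inhibitor family member, rose from 4.61, 4.96 and 4.30 to 7.40, 7.15, 7.39 and 5.90 (2.34 ± 0.43). Sel1l3 rose by 2.35 ± 0.46. In both genes diabetic array 4 was the lowest of its group, and both missed the threshold without 6 of the 10 single arrays (adjusted p up to 0.118 and 0.136). Slc4a4 did not pass without any 1 of diabetic array 3 or of 6-week arrays 1 and 3 (up to 0.0844) or Acta2 without any 1 of diabetic arrays 2, 3 and 4 or of 6-week arrays 1, 2 and 3 (up to 0.163).

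Further large falls lay outside the tubule list. Tll1, a metalloprotease that trims procollagens, was 5.71, 6.00 and 6.35 at 6 weeks and 3.67, 3.42, 4.24 and 3.46 in diabetic mice, a fall of 2.32 ± 0.21 (adjusted p = 8.88e-04). Nondiabetic mice at 21 weeks had 3.67, 4.17 and 4.05, overlapping the diabetic values. Tll1 is 1 of the 5 genes (0.0266% of all tested) that differed between both nondiabetic ages, a comparison that shares the young arrays with this one. Cldn1, a tight junction claudin, was 8.11, 8.02 and 8.0 on young and 6.79, 6.48, 6.08 and 6.41 on diabetic arrays, a fall of 1.61 ± 0.21 (adjusted p = 0.00415). All of its diabetic values lay at least 1 log2 unit under the lowest young value. Fads2b, a fatty acid desaturase family member, fell by 2.79 ± 0.32 from 10.37, 10.04 and 10.22 to 8.07, 7.82, 7.40 and 6.39 (adjusted p = 0.00219). Ret, the receptor tyrosine kinase for GDNF-family ligands, is outside the naming rule and fell by 1.47 ± 0.25. The furthest fall of all was in a predicted gene model, Gm5886, at −5.85 with 10.28, 10.30 and 10.74 on young and 6.45, 5.48, 4.20 and 2.24 on diabetic arrays.

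**Figure D3:**
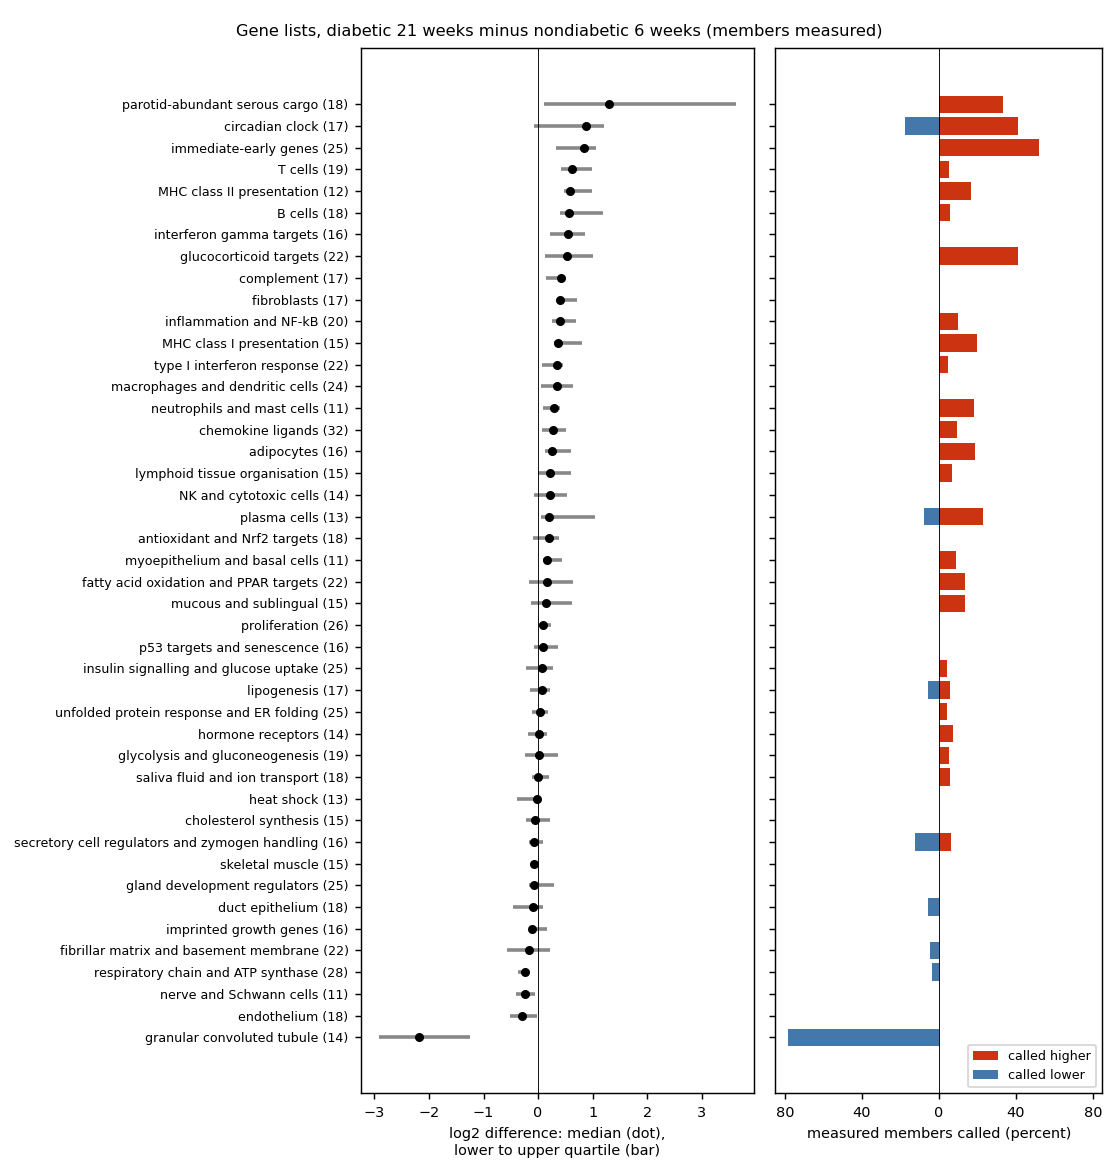
Gene lists with at least 5 measured members, ordered by median, without the branched-chain amino acid list that was chosen after its values were seen. The lists shown were chosen with earlier results of these data known. The left panel shows each list's median log2 difference (dot) with its quartiles (bar), and the right panel the percent of measured members that rose (red) or fell (blue). The granular convoluted tubule list is lowest at −2.19 and the parotid-abundant list highest at 1.30.

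Circadian clock genes changed in both directions. In the clock, the factors Arntl (Bmal1), Clock and Npas2 switch on genes that carry an E-box, among them the period and cryptochrome genes, whose proteins then shut the factors down. Output regulators such as Dbp and Tef rise and fall with the loop, opposed by Nfil3. Of 17 measured genes 7 rose and 3 fell (58.8% called, against 1.44% of all genes, median 0.87). Arntl, Npas2 and Nfil3 fell. Dbp, Per1, Per3, Cry2, Tef, Bhlhe40 and Bhlhe41 rose. Per2 is not among the genes measured, and the labels do not give the hour of sampling for any mouse.

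Arntl was 7.47, 7.42 and 7.53 on the young arrays and 4.40, 4.70, 3.93 and 5.11 on the diabetic arrays. It fell by 2.94 ± 0.43 (7.67-fold, adjusted p = 0.00668). Nondiabetic 21-week arrays reached from the diabetic range to the young level, at 4.98, 5.88 and 7.42. Npas2, the partner that can replace Clock, was 6.10, 6.07 and 6.27 on young and 3.92, 4.27, 3.40 and 4.35 on diabetic arrays and fell by 2.16 ± 0.26 (adjusted p = 0.00317). Nfil3, a repressor of the Dbp targets, fell by 1.02 ± 0.19. Clock itself had 7.81, 7.89 and 7.83 on young and 7.51, 7.39, 7.06 and 7.21 on diabetic arrays (−0.55 ± 0.13, adjusted p = 0.0582), without overlap between the groups.

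Among the rises, Dbp had 5.22, 5.51 and 5.41 on young and 7.13, 7.33, 8.01 and 7.23 on diabetic arrays (2.04 ± 0.33, 4.13-fold, adjusted p = 0.0107). Per3 rose by 1.32 ± 0.20 and Cry2 by 1.00 ± 0.16, both repressors of the loop, and Tef, a relative of Dbp, by 1.05 ± 0.17. Bhlhe41 and Bhlhe40, repressors that compete for E-boxes, rose by 1.28 ± 0.16 and 0.92 ± 0.14. Per1 was 6.26, 6.29 and 6.55 on young and 6.95, 7.27, 8.25 and 7.82 on diabetic arrays (1.21 ± 0.26, adjusted p = 0.041). Diabetic array 3 was the highest of its group for Dbp, Per1 and Per3 and the lowest for Arntl and Npas2. Nr1d1 and Nr1d2, which repress Arntl, did not pass (0.87 ± 0.25 and 1.33 ± 0.34). Wee1 and Usp2 are clock-controlled genes outside the list, noticed after their values were seen. They rose by 1.48 ± 0.30 and 1.00 ± 0.21. The 7 rises became 4 without 6-week array 1 and 1 without 6-week array 3, and the 3 falls became 2 without diabetic array 3 or any 1 of the young arrays. Arntl, Npas2 and Bhlhe41 passed with each array left out. Dbp did not pass without any 1 of 6-week arrays 1 and 3 (adjusted p up to 0.0628) or Per1 without any 1 of diabetic arrays 2, 3 and 4 or of nondiabetic 21-week array 2 or of 6-week arrays 1, 2 and 3 (up to 0.151).

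Promoters of Per1, Tef and Bhlhe41 held the E-box CACGTG, 3 of the 9 called clock genes with a RefSeq promoter (33.3%). It was also in 3 of 11 called immediate-early genes, described below (27.3%: Klf4, Klf6 and Dusp1). The letters occur in 10.1% of the 14515 tested genes with a promoter and in 7.15% of all promoters in the table, 10.9% of 129 genes that rose and 10.5% of 76 that fell. The 250 bases before the start are shown for Per1, Tef and Bhlhe41 because the clock factors bind these letters, given in capitals (RefSeq, GRCm38.p6, both strands searched).
Per1 (chr11:69098699-69098948, plus strand): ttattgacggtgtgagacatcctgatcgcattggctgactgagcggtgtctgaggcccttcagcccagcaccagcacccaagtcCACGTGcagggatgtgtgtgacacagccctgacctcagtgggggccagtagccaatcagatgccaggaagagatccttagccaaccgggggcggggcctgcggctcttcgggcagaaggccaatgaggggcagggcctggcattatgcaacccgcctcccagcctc
Tef (chr15:81802423-81802672, plus strand): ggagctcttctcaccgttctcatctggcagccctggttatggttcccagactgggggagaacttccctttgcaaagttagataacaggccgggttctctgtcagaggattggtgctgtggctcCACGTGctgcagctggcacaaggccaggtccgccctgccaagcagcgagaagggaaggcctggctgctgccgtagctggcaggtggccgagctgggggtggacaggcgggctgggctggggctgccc
Bhlhe41 (chr6:145865421-145865670, minus strand): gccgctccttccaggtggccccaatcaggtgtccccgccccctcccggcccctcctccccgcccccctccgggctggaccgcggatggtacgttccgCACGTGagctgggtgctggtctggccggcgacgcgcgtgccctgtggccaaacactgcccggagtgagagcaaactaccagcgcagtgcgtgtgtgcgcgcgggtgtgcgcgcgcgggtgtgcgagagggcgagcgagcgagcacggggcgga
The E-box begins 166, 127 and 153 bases before the start.

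Many immediate-early genes rose. These genes are switched on within minutes by growth factor, stress or calcium signals, and many encode transcription factors. Of 25 measured members 13 rose and 0 fell (52% called, against 1.44% of all genes, median 0.83). Diabetic values lay above all young values for 17 members, against 8.2% of all genes. Atf3, a stress-induced factor, was 7.21, 6.83 and 7.17 on young against 8.62, 8.41, 8.58 and 8.64 on diabetic arrays and rose by 1.49 ± 0.16 (2.81-fold, adjusted p = 0.00137). Zfp36, which speeds the decay of cytokine mRNAs, was 6.90, 6.73 and 6.84 on young and 8.20, 7.90, 8.24 and 8.76 on diabetic arrays (1.45 ± 0.18, adjusted p = 0.00317). Its values were narrow in both groups and did not overlap. Klf6 rose by 1.18 ± 0.15 and Ier2 by 0.98 ± 0.13.

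The remaining 9 that passed, named to complete the list, were Ier3 (1.85), Fosb (1.47), Egr1 (1.09), Fos (1.05), Junb (1.01), Dusp1 (1.01), Btg2 (0.90), Jun (0.85) and Klf4 (0.84). Fos had 8.28, 7.84 and 8.28 at 6 weeks, 8.01, 8.16 and 8.13 in nondiabetic and 8.97, 9.07, 9.20 and 9.52 in diabetic glands at 21 weeks. Diabetic glands were thus above both other groups on every array, and the nondiabetic groups overlapped. Without 6-week array 2 or 3, 7 or 8 passed. All groups were digested by the same enzymes, and the part of handling in these values was not tested.

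Dusp1, a phosphatase that switches off MAP kinases, stands in both the immediate-early and the glucocorticoid list. Its value was 7.80, 7.25 and 7.71 on the young and 8.48, 8.49, 8.72 and 8.68 on the diabetic arrays (1.01 ± 0.15, adjusted p = 0.00635). Its promoter and that of Btg2 held the cyclic AMP response element TGACGTCA, found in 2 of 11 called immediate-early genes with a promoter and in 2.87% of tested genes with one. Both stretches of 250 bases are shown with this element in capitals (RefSeq, GRCm38.p6).
Dusp1 (chr17:26508473-26508722, minus strand): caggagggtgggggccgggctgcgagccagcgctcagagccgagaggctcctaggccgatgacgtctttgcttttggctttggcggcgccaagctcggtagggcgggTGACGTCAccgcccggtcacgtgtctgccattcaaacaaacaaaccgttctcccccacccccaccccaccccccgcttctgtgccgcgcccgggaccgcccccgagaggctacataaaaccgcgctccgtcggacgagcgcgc
Btg2 (chr1:134079156-134079405, minus strand): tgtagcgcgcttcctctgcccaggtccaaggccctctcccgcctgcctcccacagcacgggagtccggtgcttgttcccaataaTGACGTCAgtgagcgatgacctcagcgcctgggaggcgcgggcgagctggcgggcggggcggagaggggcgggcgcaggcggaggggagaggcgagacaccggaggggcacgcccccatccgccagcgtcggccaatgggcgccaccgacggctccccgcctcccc
The element begins 143 and 166 bases before the start.

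Among 22 glucocorticoid targets 9 rose and 0 fell (40.9% called, against 1.44% of all genes, median 0.53). They were Lcn2 (1.28), Per1, Pck1 (1.07), Angptl4 (1.06), Pdk4 (1.05), Dusp1, the metallothioneins Mt2 (0.99) and Mt1 (0.90), and Cebpd (0.85). Several of these belong to other lists as well. Fkbp5 and Tsc22d3, which are widely used as readouts of the receptor, differed by 0.31 ± 0.21 (adjusted p = 0.532) and 0.23 ± 0.19 (adjusted p = 0.611). The count fell to 3, 3 and 4 without diabetic array 2, 3 or 4 and to 3, 2 and 2 without 6-week array 1, 2 or 3.

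**Figure D4:**
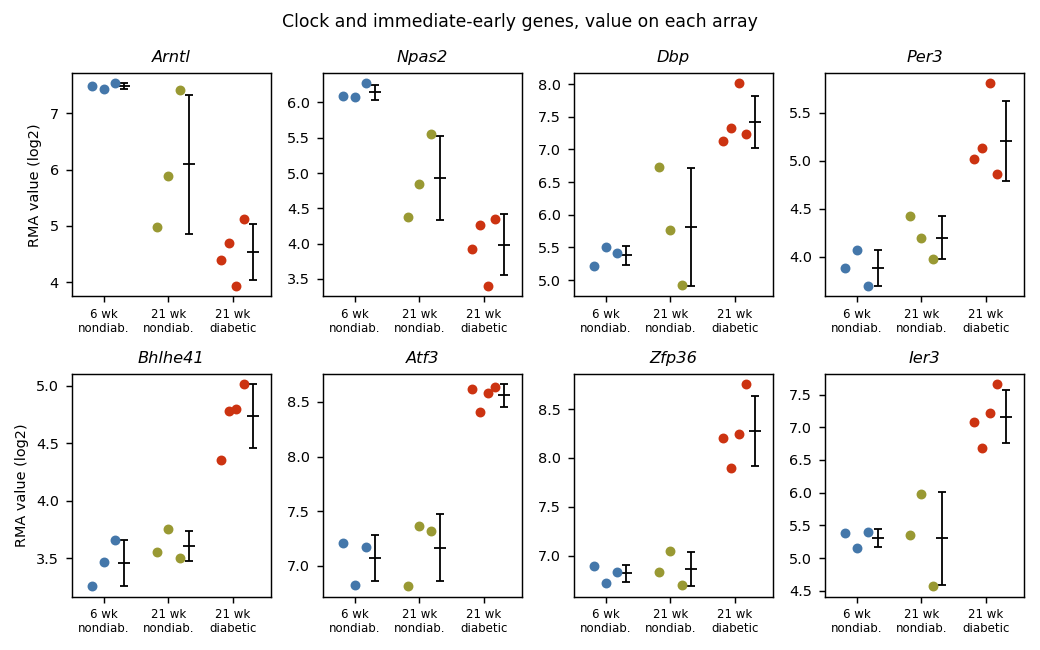
RMA values (log2, y axis) on each array for 5 clock genes (Arntl, Npas2, Dbp, Per3, Bhlhe41) and 3 immediate-early genes (Atf3, Zfp36, Ier3). Points are arrays and the bar is the mean ± SD. Arntl spans 4.98 to 7.42 within the 3 nondiabetic 21-week arrays, and Atf3 separates the 4 diabetic arrays from all others.

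Some genes of antigen presentation rose. Cells show peptides from their own proteins on MHC class I, which needs B2m, and immune cells and inflamed epithelium show ingested peptides on class II. Of 15 measured class I genes 3 rose and 0 fell (20% called, against 1.44% of all genes, median 0.36). B2m, the light chain of class I, was 9.81, 9.67 and 9.59 on young against 11.11, 11.36, 10.91 and 10.59 on diabetic arrays and rose by 1.30 ± 0.18 (2.47-fold, adjusted p = 0.00473). Nondiabetic glands at 21 weeks were as high, at 11.19, 10.80 and 10.71. Psmb8, a subunit of the immunoproteasome, rose by 0.88 ± 0.17 and H2-Q4 by 0.87 ± 0.16.

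Of 12 class II genes 2 rose (16.7%, against 1.44% of all genes called, median 0.59). H2-Aa was 4.16, 4.26 and 4.04 on the young and 4.93, 5.44, 5.76 and 5.58 on the diabetic arrays (1.27 ± 0.19, adjusted p = 0.00651), and H2-Ab1 7.20, 6.75 and 6.84 on young and 7.68, 8.53, 8.58 and 8.88 on diabetic arrays (1.48 ± 0.24, adjusted p = 0.0104). These chains pair to form the class II molecule. Nondiabetic 21-week values were 5.44, 5.10 and 5.0 for H2-Aa and 8.45, 8.22 and 8.06 for H2-Ab1, all inside the diabetic range. H2-Eb1 did not pass (0.89 ± 0.20, adjusted p = 0.0545). Class I kept 1 rise without 6-week array 1 or 3, and 6 passed without nondiabetic 21-week array 3. Class II kept 1 rise without 6-week array 2, 0 without 6-week array 3 and reached 4 without that nondiabetic array. H2-Q4 did not pass without any 1 of diabetic array 3 or of 6-week arrays 1 and 3 (adjusted p up to 0.108) or Psmb8 without any 1 of diabetic arrays 2 and 4 or of 6-week arrays 1, 2 and 3 (up to 0.13). B2m passed with each array left out (adjusted p up to 0.0415).

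Interferon lists had few calls. In the type I list 1 of 22 rose, Zbp1, a sensor of nucleic acids in Z form (0.82 ± 0.17), which did not pass without any 1 of diabetic arrays 1, 2, 3 and 4 or of 6-week arrays 1 and 3 (adjusted p up to 0.129). In the list of 16 interferon gamma targets 0 passed in limma's test (median 0.55). At an unadjusted p under 0.05, 9 were higher and 0 lower, against 2811 of all 18826 genes in either direction. Irf1, a factor induced by interferon, had the lowest p of the list (0.94 ± 0.22, adjusted p = 0.0554). The list had 1, 2 and 2 calls without diabetic array 1, diabetic array 4 and nondiabetic 21-week array 3. Sting1, the adaptor of cytosolic DNA sensing, is in none of the lists and was noticed after its values were seen. It was 4.28, 4.65 and 4.33 on young and 5.87, 6.01, 5.61 and 5.88 on diabetic arrays and rose by 1.42 ± 0.15 (adjusted p = 0.00127), with 4.97, 4.93 and 4.63 in nondiabetic 21-week glands. Coch and Slfn2, also noticed afterwards, rose by 1.5 ± 0.15 and 1.36 ± 0.22, and nondiabetic 21-week arrays had 6.61, 6.18 and 6.31 and 6.54, 6.00 and 5.31, overlapping the diabetic ones.

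Antibody genes were among the furthest rises. Of 23 measured antigen receptor segments 8 rose and 0 fell (34.8% called, against 1.44% of all genes, median 1.95). Among the 8 were Iglv1 (3.94) and the T cell receptor segment Trav9d-3 (2.68). These segments resemble each other, so a probe set can read several of them. Jchain, which joins polymeric antibodies, was 6.04, 4.99 and 4.69 on the young arrays and 7.25, 7.54, 9.16 and 9.72 on the diabetic arrays (3.18 ± 0.54, 9.04-fold, adjusted p = 0.0145). Nondiabetic 21-week arrays had 6.43, 7.49 and 6.53, above the young values and reaching the lowest diabetic ones. Ighm, the IgM heavy chain, rose by 2.34 ± 0.45 from 8.29, 8.38 and 7.97 to 10.13, 9.44, 10.54 and 12.09 (adjusted p = 0.0284). Diabetic array 4 was highest for both. Jchain did not pass without any 1 of diabetic array 3 or of 6-week arrays 2 and 3 (adjusted p up to 0.0895) or Ighm without any 1 of diabetic array 3 or of 6-week arrays 1, 2 and 3 (up to 0.119).

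In the plasma cell list of 13 genes 3 rose (Jchain, Ighm and Xbp1) and 1 fell: Derl3, part of endoplasmic reticulum degradation, by 0.87 ± 0.13. Xbp1 and Derl3 are also used by secretory epithelium. Without diabetic array 3, 6-week array 2 or 6-week array 3 the list had 0 rises, and 1 without 6-week array 1. The B cell list had 1 rise in 18, Blnk, an adaptor of the B cell receptor (0.89 ± 0.19), and a median of 0.56 with 0 members below 0. Cd79a, a receptor chain, was 3.66, 3.40 and 3.69 on young and 4.85, 4.30, 4.21 and 6.32 on diabetic arrays (1.34 ± 0.40, adjusted p = 0.131). Ms4a1 (CD20) was 3.28, 3.32 and 2.93 on young and 4.27, 4.04, 3.77 and 6.44 on diabetic arrays (1.45 ± 0.49, adjusted p = 0.175). Diabetic array 4 lay over 1 log2 unit above the other diabetic arrays in both, and without it the difference of Ms4a1 was 0.85. The 4 measured B cell markers summed to 15.3 to 23 in diabetic, 14.6 to 18 in nondiabetic 21-week and 13.4 to 13.6 in young arrays. Blnk did not pass without any 1 of diabetic arrays 2, 3 and 4 or of nondiabetic 21-week array 2 or of 6-week arrays 1, 2 and 3 (adjusted p up to 0.168).

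T cell genes were similar in count. Cd3g, a chain of the T cell receptor complex, was 3.47, 3.52 and 3.64 on young and 5.29, 5.23, 5.33 and 6.22 on diabetic arrays (1.97 ± 0.33, adjusted p = 0.0122), with 6.10, 5.61 and 4.47 in nondiabetic glands at 21 weeks. It was the only 1 of 19 T cell genes to pass (median 0.63), and it did not pass without any 1 of the 6-week arrays (adjusted p up to 0.0628). Cd3e had 4.38, 4.09 and 4.29 on young and 5.32, 5.52, 5.84 and 7.45 on diabetic arrays (1.78 ± 0.44, adjusted p = 0.0713). The 5 measured T cell markers summed to 23 to 29 in diabetic, 21.3 to 25.4 in nondiabetic 21-week and 18.1 to 19.4 in young arrays. Diabetic array 4 held the highest sum for both T cells (29) and B cells (23). More lymphocytes and more RNA per lymphocyte cannot be told apart. Ptpn22, a phosphatase of lymphocytes, and Cd53, a leukocyte tetraspanin, were noticed after their values were seen and rose by 1.80 ± 0.40 and 1.71 ± 0.34, with diabetic array 4 highest.

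Cxcl13, the chemokine that draws B cells into follicles, was 5.54, 4.62 and 5.29 on the young arrays and 7.10, 7.03, 8.58 and 9.19 on the diabetic arrays. It rose by 2.83 ± 0.48 (7.09-fold, adjusted p = 0.014), while nondiabetic glands at 21 weeks had 5.25, 4.60 and 4.04. All 3 nondiabetic 21-week values lay within or under the range of the young ones. Ccl9 (1.12 ± 0.23) and Ccl8 (1.60 ± 0.34), which attract myeloid cells, were the other rises among 32 chemokine ligands. The share called was 9.38%, against 1.44% of all genes. Without diabetic array 3, 6-week array 2 or 6-week array 3, 0 of the 3 passed, and 1 did without diabetic array 1 or 2 or 6-week array 1. The adjusted p of Cxcl13 was 0.079 at most.

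Among innate genes, Ltf (lactoferrin), an iron-binding antimicrobial protein of saliva and neutrophils, was 3.94, 4.07 and 3.26 on young and 6.26, 5.92, 5.86 and 5.09 on diabetic arrays (2.03 ± 0.32, adjusted p = 0.00919). Lcn2, which binds bacterial iron carriers, was 4.81, 4.67 and 5.07 on young and 6.25, 6.21, 5.96 and 6.10 on diabetic arrays (1.28 ± 0.17, adjusted p = 0.00473), with narrow ranges in both groups and 4.95, 4.35 and 4.22 in nondiabetic 21-week glands. Camp, a defining granule gene of neutrophils, was under the 25th percentile on all 3 young arrays and 1 diabetic array. Il33, an alarmin of epithelium and stroma, rose by 1.24 ± 0.20, but not without any 1 of 6-week arrays 2 and 3 (adjusted p up to 0.0665). Ltf missed the threshold without 6-week array 3 (0.0628). Cpa3, a mast cell protease, rose by 1.27 ± 0.28, with 1 young value under the 25th percentile, and passed with only 2 of the 10 single arrays left out. In the list of neutrophil and mast cell genes 2 of 11 measured rose (18.2%, against 1.44% of all genes called), and 0 without 6-week array 3. The listed markers S100a8, S100a9, Cma1, Mcpt4 and Fcer1a were too low to pass the filter on low values and were not tested. Of 24 macrophage and dendritic genes 0 passed, with 10 higher and 0 lower at an unadjusted p under 0.05 (2811 of all 18826 genes in either direction). Their 4 markers summed to 21.8 to 24.2 in diabetic and 19.7 to 21.7 in young arrays. For 17 complement genes these counts were 0, 8 and 0, and for 14 genes of NK and cytotoxic cells 0, 6 and 0. Macrophage and dendritic genes had 2 calls without nondiabetic 21-week array 3, 2 without 6-week array 1 and 5 with array weights. Complement had 1 without 6-week array 1 and 5 with array weights, and NK and cytotoxic cells had 1 without nondiabetic 21-week array 3 and 2 with array weights.

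**Figure D5:**
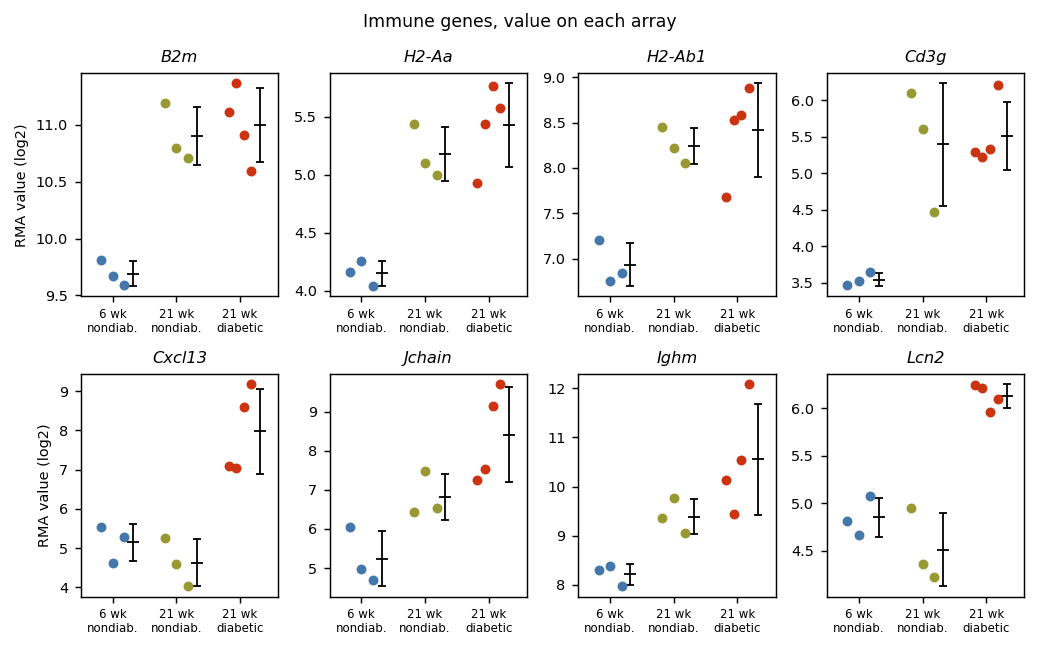
RMA values (log2, y axis) of 8 immune genes on each array, by group, with mean ± SD. B2m, H2-Aa, H2-Ab1 and Cd3g overlap between nondiabetic and diabetic 21-week glands, whereas Cxcl13 and Lcn2 are high on the 4 diabetic arrays alone.

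Metabolic genes changed in a few places. Type 1 diabetes deprives tissues of insulin, and a cell short of insulin is known to burn fatty acids and spare glucose. Of 22 genes that serve fatty acid oxidation or are targets of PPAR 3 rose and 0 fell (median 0.16). The share called was 13.6%, against 1.44% of all genes. Pdk4, which blocks pyruvate entry into mitochondria, was 6.79, 6.26 and 6.53 on young and 7.17, 7.66, 7.40 and 8.08 on diabetic arrays (1.05 ± 0.22, adjusted p = 0.0408). Nondiabetic 21-week glands were under both, at 5.03, 5.76 and 5.49. Angptl4, an inhibitor of lipoprotein lipase, rose by 1.06 ± 0.17 and Cpt1a, the entry enzyme of mitochondrial fatty acid oxidation, by 0.80 ± 0.17. The list had 0 rises without 6-week array 2 or 3 and 1 without 6-week array 1 or diabetic array 2 or 3.

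Oxct1, which lets cells use ketone bodies, was 8.03, 7.99 and 8.21 on young and 6.85, 7.04, 6.4 and 5.96 on diabetic arrays and fell by 1.52 ± 0.21 (2.86-fold, adjusted p = 0.00473). Nondiabetic 21-week arrays had the young level (8.12, 8.06 and 8.09). Phyh, an enzyme of peroxisomal alpha-oxidation, fell by 1.65 ± 0.30 from 7.53, 7.58 and 7.50 to 6.52, 6.37, 5.79 and 4.87. Both had their lowest value on diabetic array 4. Scd1, a fatty acid desaturase induced by insulin, fell by 0.93 ± 0.19, and Dgat2, an enzyme of triglyceride synthesis, rose by 0.58 ± 0.11, the 2 calls among 17 lipogenic genes. Phyh did not pass without any 1 of diabetic array 3 or of 6-week arrays 1, 2 and 3 (adjusted p up to 0.0916), Scd1 without any 1 of diabetic array 3 or of nondiabetic 21-week array 2 or of 6-week arrays 1, 2 and 3 (up to 0.144) or Dgat2 without any 1 of diabetic arrays 1, 2 and 3 or of 6-week arrays 1, 2 and 3 (up to 0.126). Oxct1 passed with each array left out.

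Among the adipocyte genes Car3 rose furthest. This carbonic anhydrase, abundant in fat and muscle, was 4.16, 3.76 and 4.10 on young against 6.89, 7.91, 6.42 and 6.93 on diabetic arrays (3.03 ± 0.33, 8.18-fold, adjusted p = 0.00137). Resistin (Retn, 1.12 ± 0.20) and Pck1, the gluconeogenic enzyme that fat cells also use (1.07 ± 0.21), were the other rises among 16 adipocyte genes. The defining fat markers Adipoq, Plin1 and Lep differed by 0.31 ± 0.14, 0.14 ± 0.17 and −0.04 ± 0.27 and did not pass. The 4 fat markers summed to 13.2 to 15 in diabetic and 12.6 to 13.4 in young arrays, and their part in the rise of Car3 was not tested. The adipocyte list kept 1 rise without diabetic array 3 or any 1 of the young arrays, and Car3 passed under each.

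Igf1r, the receptor of insulin-like growth factor 1, rose by 0.74 ± 0.12 from 5.19, 5.06 and 5.14 to 5.87, 5.72, 5.92 and 5.96 (adjusted p = 0.00959), the 1 call among 25 genes of insulin signalling and glucose uptake. Insr, the insulin receptor, differed by 0.28 ± 0.12 (adjusted p = 0.28) and Slc2a4, the insulin-driven glucose transporter, by −0.31 ± 0.17 (adjusted p = 0.423). Igf1r missed the threshold without 6-week array 2 or 3 (adjusted p up to 0.0604). Txnip, which glucose induces, was 9.88, 9.86 and 9.82 on young and 9.71, 10.22, 10.05 and 10.28 on diabetic arrays (0.21 ± 0.14, adjusted p = 0.53), and 8.97, 9.10 and 9.10 in nondiabetic 21-week glands. All 28 measured genes of the respiratory chain and ATP synthase had a difference below 0 (median −0.24, against −0.02 over all genes). Their mean was 6.99, 6.93 and 7.05 on young and 6.82, 6.91, 6.63 and 6.48 on diabetic arrays. Of these genes 1 passed: Cycs, cytochrome c, which fell by 0.91 ± 0.20 and did not pass without any 1 of 7 arrays (adjusted p up to 0.178).

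Few genes of growth and matrix passed. Of 26 proliferation genes 0 passed in limma's test, with 2 higher and 0 lower at an unadjusted p under 0.05 (2811 of all 18826 genes in either direction). Mki67, a marker of dividing cells, was 3.84, 4.03 and 3.75 on young and 3.58, 3.97, 3.58 and 5.62 on diabetic arrays, with diabetic array 4 alone above the young range by over 1 log2 unit. Its difference was 0.31, and −0.17 without that array. Of 22 matrix genes 1 fell: Sparc, a collagen-binding protein (7.06, 6.01 and 6.38 on young against 5.45, 5.48, 5.44 and 5.19 on diabetic arrays, 1.10 ± 0.23, adjusted p = 0.0355, and up to 0.119 without 1 of 7 arrays). Nondiabetic 21-week glands were as low (5.82, 5.45 and 5.08). Col1a1, the main fibrillar collagen, was 7.05, 5.94 and 6.66 on young and 5.93, 6.17, 5.70 and 5.74 on diabetic arrays (−0.67 ± 0.24, adjusted p = 0.206).

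Several lists had 0 calls in limma's test, with these counts at an unadjusted p under 0.05: fibroblasts 2 higher and 0 lower of 17, endothelium 2 and 7 of 18, gland development regulators 5 and 2 of 25, imprinted growth genes 3 and 1 of 16, antioxidant and Nrf2 targets 6 and 1 of 18, p53 targets and senescence 3 and 1 of 16, heat shock 1 and 4 of 13, cholesterol synthesis 2 and 2 of 15, skeletal muscle 0 and 2 of 15, nerve and Schwann cells 0 and 4 of 11, and erythroid cells 0 and 0 of 2. Over all genes tested, 2811 of 18826 had an unadjusted p under 0.05 in either direction. Some of these lists with 0 calls gained calls with 1 array left out. Endothelium had 1 fall without diabetic array 1 and 2 without nondiabetic 21-week array 3, and cholesterol synthesis had 1 rise without diabetic array 1. Heat shock had 1 rise without nondiabetic 21-week array 2 or 3, p53 targets 1 without nondiabetic 21-week array 1 or 3, and imprinted genes 1 without nondiabetic 21-week array 3. Gland development regulators had 1 rise without nondiabetic 21-week array 2 and 1 fall without nondiabetic 21-week array 3. Kdr, the VEGF receptor of endothelium, had the lowest p of the endothelium list (−1.06 ± 0.24, adjusted p = 0.0553). In the lists of unfolded protein response (25 genes), glycolysis and gluconeogenesis (19) and lymphoid tissue organisation (15) the single rises were Xbp1, Pck1 and Cxcl13, described above.

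Further genes that the naming rule chose did not pass, and their log2 differences (diabetic minus young) are given with the adjusted p in ranges. In epithelium these were the secretion genes Itpr3 (0.30), Ano1 (0.29) and Vipr1 (0.52), the epithelial regulators Elf5 (−0.52) and Ascl3 (−0.85), a transcription factor of duct cells, the secretory product gene Sval2 (−0.55), the contractile and basal genes Trp63 (0.38), Myh11 (0.48) and Cnn1 (0.59) and Herpud1 (0.32), with adjusted p from 0.0601 to 0.336. Among immune genes they were the lymphocyte genes Cd4 (0.88), Cd8a (0.76), Bank1 (1.07), Cd37 (1.40) and Cr2 (0.56), the presentation genes H2-DMa (0.55) and Nlrc5 (0.74), the interferon-induced Ifi204 (1.25), Ifi205 (1.54) and Bst2 (0.47), and Tnfaip3 (1.54), Nfkbiz (0.65), Icam1 (0.63), Ccl6 (1.13) and Cxcr2 (0.45). Their adjusted p ran from 0.0572 to 0.266, and Tnfaip3, an inhibitor of NF-kB signalling, was 4.59, 4.61 and 4.92 on young and 5.63, 5.75, 6.07 and 7.55 on diabetic arrays. Among metabolic and hormone genes they were Socs3 (1.03), Irs2 (0.78), Foxo1 (−0.51), Ghr (−0.54), Esr1 (0.12) and Igf2 (−0.14), the sugar enzymes Aldoc (0.59), Pfkm (−0.57) and Pfkfb3 (0.74), the lipid genes Acot2 (0.59), Srebf1 (−0.32), Thrsp (−0.45) and Cidec (0.67) and the respiratory chain subunits Cox5a (−0.47), Uqcrc1 (−0.36) and Ndufa1 (−0.37), with adjusted p from 0.0607 to 0.781. The matrix genes Col4a1 (−0.74), Col4a2 (−0.75) and Serpinh1 (−0.52) had adjusted p from 0.0862 to 0.161.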

How the data were processed

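Microarray values of 10 samples were used, with groups from the labels: 4 diabetic and 3 nondiabetic mice at 21 weeks and 3 nondiabetic mice at 6 weeks. The deposited values are log2 intensities that the authors made with Affymetrix Power Tools (RMA, per the submitters' processing notes), with versions not given in the sources used here. RMA quantile-normalizes arrays together, so a shift common to all genes is removed. The labels give no batch or scan date. Precision is limited by the number of arrays.

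Of 41345 probe sets, 23521 carry 1 gene symbol in the platform annotation, 1814 several and 16010 none. Probe sets had to exceed the 25th percentile of the array on at least 3 arrays, which left 18826 of 22180 genes. For each gene the brightest of the probe sets left was used, by its mean over all 10 arrays. limma 3.58.1 (R 4.3.3) fitted a mean per group on all 10 arrays (7 residual and 5.61 prior degrees of freedom), two-sided, with Benjamini-Hochberg adjustment. In simulated data 72% of 100 genes shifted by 1 log2 unit and 100% of 100 shifted by 2 were recovered, with 5 false calls among 177. These shares need not hold for genes whose arrays spread widely. In the real data Muc19 (2.73) and Bpifa2 (2.02) did not pass.

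The text names the 15 genes with the largest change in each direction that passed without overlap and carry an ordinary symbol, the 4 genes with the smallest p of every list (of 45) with at least 1 call, and some salivary, immune and metabolic genes wherever measured. Other genes are list members named to complete a count or shown as markers, or were noticed after their values were seen. The members and lists were chosen with earlier results of these data known, and 1 further list was chosen after its values were seen. Filters, scalings, variance models, array weights and single-array omissions were tried as alternatives. Promoters came from the RefSeq table (GRCm38.p6). Shares of promoters with a motif were counted over the whole promoter sequence, which also holds bases after the start.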

Additional observations from a re-analysis of the deposited data

Results flagged for a closer look

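Among 135 named genes, 10 had a diabetic array that stood apart from the other 3 by more than Dixon's critical value for 4 samples (the gap to the nearest array over the range of all 4). Chance gives about 1 such gene in 20, and genes on the same arrays are not independent. The array was diabetic array 4 for 9 of them and diabetic array 1 for 1. Array 4 was low for Serpinb11 (5.90), Sparc (5.19), Dnajb9 (7.02), Thrb (5.41), Egf (6.73), Galnt12 (4.58) and Sel1l3 (5.47). It was high for Cd3g (6.22) and for Ltb (6.38), a lymphotoxin chain made by lymphocytes. Array 1 was high for Chac1 (5.65), a target of the unfolded protein response. Dnajb9, a chaperone of the endoplasmic reticulum, was at 8.06 or above on the other 3 diabetic arrays. On array 4 the summed B cell markers reached 23 and the summed T cell markers 29, the highest of all arrays, and the summed granular tubule markers were lowest at 27.8; the part of cell makeup in these values was not tested.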

How the results depend on the processing

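The 272 genes (170 higher, 102 lower) became 672 (423 and 249) with array weights, 58 (39 and 19) at an adjusted p under 0.01 and 128 (93 and 35) with a 2-fold minimum. Quantile normalization gave 162 lower genes. With 1 array left out, the total ranged from 48 to 393, the higher genes from 31 to 244 and the lower genes from 17 to 149. Without 6-week array 3, 47 of the 48 were among the 272. Array omissions chosen after seeing the data gave 136 (101 and 35) without diabetic array 4 and 6-week array 1, and 505 (351 and 154) without diabetic array 4 and nondiabetic 21-week array 3. Other filters, scalings and variance models, and the 7 arrays alone, gave 220 to 386 genes. Other scalings moved the median of all genes by under 0.1.

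The replicate numbers shared by groups do not mark a known pairing. Deviations of same-numbered arrays correlated at −0.061, 0.028 and 0.009, and with the replicate block 206 genes passed (155 higher, 51 lower, 146 of them among the 272).

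Over the 135 named genes and all alternatives, 2584 values kept direction and side of the threshold, 268 lost the call, 108 gained it and 6 changed sign. The sign changes were in Mki67 (−0.17 without diabetic array 4, alone or with nondiabetic 21-week array 3, and with the replicate block, and −0.18 without diabetic array 4 and 6-week array 1) and in Aqp5 (−0.02 after quantile normalization and −0.0005 without diabetic array 1), neither of which passed. The cause was not tested. With 3 young arrays, changes near 1 log2 unit are often missed, and differences of levels under the 25th percentile of an array have no reliable size.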

Other observations

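Enzymes that break down branched-chain amino acids were lower, a list chosen after its values were seen, so its count is a description and no evidence. Of 24 measured genes 4 fell and 0 rose (16.7%, against 1.44% of all genes), 23 had a difference below 0, and the median was −0.41 against −0.02 over all genes. Bckdha, a subunit of the dehydrogenase that commits these amino acids to breakdown, was 7.55, 7.39 and 7.43 on the 6-week arrays, 7.36, 7.18 and 7.03 on the nondiabetic 21-week arrays and 6.68, 6.68, 6.84 and 6.55 on the diabetic arrays. It fell by 0.77 ± 0.12 (adjusted p = 0.0107), and the groups of the comparison did not overlap. Bckdhb and Dbt, further subunits of that complex, fell by 0.67 ± 0.14 and 0.71 ± 0.13, and Acadsb, which acts a step later, by 0.79 ± 0.16. Without diabetic array 3 the list had 2 falls, without 6-week array 2 it had 1, and without 6-week array 1 or 3 it had 0.

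Tight junction genes outside the rule for named genes moved in different directions beside Cldn1. Cldn3 and Cldn4 rose by 0.69 ± 0.13 and 0.73 ± 0.16, and Tjp3, a scaffold of these junctions, fell by 0.62 ± 0.12. Cldn4 was 5.57, 5.73 and 5.98 on the 6-week, 6.20, 5.85 and 5.82 on the nondiabetic 21-week and 6.19, 6.49, 6.52 and 6.77 on the diabetic arrays. Single further rises outside the lists were noticed after their values were seen. Clu (clusterin) was 5.84, 5.65 and 6.09 on the 6-week arrays, 6.14, 6.00 and 6.14 on the nondiabetic 21-week arrays and 7.28, 7.38, 7.03 and 6.80 on the diabetic arrays and rose by 1.26 ± 0.16 (adjusted p = 0.00336). Serpina3n, a protease inhibitor, rose by 1.25 ± 0.18 and Lrg1 by 0.82 ± 0.18. Cyp2e1, an oxidase that also metabolises acetone, was 3.57, 3.55 and 3.31 at 6 weeks, 3.16, 3.36 and 4.04 in nondiabetic and 4.19, 5.42, 5.70 and 4.78 in diabetic mice at 21 weeks (1.55 ± 0.31, adjusted p = 0.0315).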
